A study of Mus musculus with 9 samples.

Results

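The NF-kappa-B subunits and the inhibitors and cofactors that NF-kappa-B itself induces were followed in mouse liver. The set holds 10 listed genes, Nfkb1, Nfkb2, Relb, Nfkbia, Nfkbie, Nfkbiz, Bcl3, Tnfaip3, Tnip1 and Birc3, and each was taken as the row of the deposited table that carries its name. Of 42188 genes in the table, 9 carry one of these names, and all 9 were among the 14603 genes that passed the filter on low counts. Nfkbiz has no row of that name. A gene model without a symbol on chromosome 16 (56432171 to 56443166, minus strand, C57BL/6NJ assembly), whose deposited description names the Nfkbiz protein, was measured in its place. It is called the Nfkbiz model and is left out of every count over the 9 named genes.

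Liver RNA was sequenced in 9 libraries, 3 per group. All mice were labelled wild-type male C57BL/6J, 8 weeks old and 20 to 25 g. The Control group had PBS in the tail vein. The ConA group had 1 intravenous dose of 20 mg/kg concanavalin A (ConA), a T cell mitogen from jack bean that is used to provoke immune-mediated hepatitis in mice. The MSA_ConA group had 250 mg/kg MSA in the peritoneum 6 h ahead of the same ConA dose. The series title names mesaconate, an itaconate-related dicarboxylate, and the labels give the compound as MSA. Livers were taken 12 h after ConA.

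NF-kappa-B is a family of dimeric transcription factors that in resting cells are held in the cytoplasm by IkappaB proteins. Signals from cytokine and pattern-recognition receptors activate IkappaB kinases, IkappaB is degraded, and the freed dimers switch on inflammatory and survival genes. Among these genes are the inhibitors that end the response, so their transcripts are used as a readout of recent NF-kappa-B activity. In liver the pathway runs in hepatocytes and in Kupffer, endothelial and infiltrating immune cells.

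Promoter windows, the 250 bases before an annotated start (RefSeq, GRCm38.p6), are shown because binding sites for NF-kappa-B itself are what joins such genes into a feedback loop. Windows were matched by symbol for 7 of the 10 genes, and Nfkb1, Relb and Nfkbiz were not matched. Both strands were searched for the 10-base NF-kappa-B consensus motif. The searched windows hold a match in 5 of the 7 genes, against 4.46% of 27025 genes with a window. Capitals mark the matched bases, and overlapping matches run together.
Nfkb2, window 1 of 3, chr19:46304487-46304736, plus strand: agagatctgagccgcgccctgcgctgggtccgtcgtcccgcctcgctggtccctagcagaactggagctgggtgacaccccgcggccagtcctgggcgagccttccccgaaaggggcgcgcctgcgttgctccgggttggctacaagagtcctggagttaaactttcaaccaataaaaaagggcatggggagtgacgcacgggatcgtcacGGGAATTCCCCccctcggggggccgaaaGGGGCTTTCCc
Nfkbia, chr12:55492648-55492897, minus strand: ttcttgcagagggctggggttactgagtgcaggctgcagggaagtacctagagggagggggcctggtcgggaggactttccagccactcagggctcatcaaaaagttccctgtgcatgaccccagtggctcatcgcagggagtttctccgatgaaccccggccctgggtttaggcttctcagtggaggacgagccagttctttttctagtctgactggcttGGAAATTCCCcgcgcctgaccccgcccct
Nfkbie, chr17:45555450-45555699, plus strand: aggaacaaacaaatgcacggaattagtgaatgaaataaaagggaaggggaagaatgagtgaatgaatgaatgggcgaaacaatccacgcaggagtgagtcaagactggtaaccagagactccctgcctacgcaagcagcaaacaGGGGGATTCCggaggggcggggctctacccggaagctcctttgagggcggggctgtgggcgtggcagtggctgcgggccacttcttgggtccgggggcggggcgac
Tnfaip3, window 1 of 2, chr10:19015411-19015660, minus strand: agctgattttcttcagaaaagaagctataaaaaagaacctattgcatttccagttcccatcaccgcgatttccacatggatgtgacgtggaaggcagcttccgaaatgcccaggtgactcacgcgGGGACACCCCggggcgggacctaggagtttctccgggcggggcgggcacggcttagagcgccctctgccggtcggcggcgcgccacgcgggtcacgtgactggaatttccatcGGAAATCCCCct
Tnip1, chr11:54962941-54963190, minus strand: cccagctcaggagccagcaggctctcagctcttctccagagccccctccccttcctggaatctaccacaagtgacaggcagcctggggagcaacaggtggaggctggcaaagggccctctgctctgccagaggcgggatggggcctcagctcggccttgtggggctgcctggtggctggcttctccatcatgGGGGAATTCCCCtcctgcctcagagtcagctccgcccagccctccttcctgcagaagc
Birc3, chr9:7873171-7873420, minus strand: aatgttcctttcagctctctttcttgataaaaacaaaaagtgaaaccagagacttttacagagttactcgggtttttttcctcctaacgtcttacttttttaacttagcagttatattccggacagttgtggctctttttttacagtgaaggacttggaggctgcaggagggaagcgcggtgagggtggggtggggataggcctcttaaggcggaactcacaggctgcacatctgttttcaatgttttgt

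In Nfkb2 the matches in window 1 begin 39, 38 and 11 bases before the start, and its 2 other windows hold 1 match each, at 236 and 225 bases. In Nfkbia the match begins 29 bases before the start, and in Nfkbie 106 bases before it. Tnfaip3 holds matches at 125 and 12 bases in window 1 and none in window 2. Tnip1 holds 3 overlapping matches that begin 58, 57 and 56 bases before the start. The windows of Bcl3 and Birc3 hold no match to these letters. At least 2 matches stand in 0.493% of all 32851 windows. A match is a description of the sequence and not a measured binding site.

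The libraries numbered 1 stand apart from the others, and it is the 6 libraries numbered 2 and 3 whose transcripts of sex and strain went against the labels. Levels are given as CPM, counts scaled to a common library size. Although every mouse was labelled male, Xist, which is transcribed from the silenced X in females, ranged from 667 to 1131 CPM in these 6 libraries and did not exceed 0.484 CPM in the 3 with the number 1. Nnt, a mitochondrial transhydrogenase gene that is disrupted in the labelled strain, ranged from 168 to 266 CPM in those 6 libraries but from 29.8 to 34.5 CPM in number 1. Mup21, a major urinary protein gene, ranged from 251 to 668 CPM in number 1 and did not exceed 1.44 CPM elsewhere. Alb, the hepatocyte albumin gene, was at 64100 to 100200 CPM in all 9 libraries. These transcripts of sex and strain separated number 1 from numbers 2 and 3 within every group. Each comparison of the members is given for all 9 libraries, for the libraries numbered 1 and for those numbered 2 and 3. A sample is called by its label throughout, for example the library labelled ConA 1. CPM values are scaled by TMM factors and FPKM values are as deposited.

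Nfkb1 encodes p105, the precursor of the p50 subunit. It measured 28.8, 28.2 and 30.2 CPM in the libraries labelled Control 1, 2 and 3, then 289, 32.1 and 31.5 CPM in ConA 1, 2 and 3, and 33.3, 32.5 and 34.9 CPM in MSA_ConA 1, 2 and 3. Only ConA 1 was high, and the 8 other libraries lay within 28.2 to 34.9 CPM. In TMM-scaled CPM, Control did not overlap with ConA or MSA_ConA for Nfkb1, although the gap to the lowest ConA library was small beside ConA 1. ConA and MSA_ConA overlapped. Scaled by library totals instead, MSA_ConA 1 was below Control 1 (ratio 0.697). The share of all genes whose groups separate in this way was not counted.

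Nfkb2 encodes p100, the precursor of p52 and itself an inhibitor of RelB dimers. It measured 10.65, 11.3 and 10.1 CPM in Control, 190 CPM in ConA 1 with 9.11 and 7.84 CPM in ConA 2 and 3, and 10.4, 9.24 and 9.37 CPM in MSA_ConA. ConA 1 was the single high library, while ConA 2 and 3 were below all Control libraries. Psd, a gene on the opposite strand that overlaps Nfkb2, measured 36.4 CPM in ConA 1 and 15.4 CPM in MSA_ConA 1, and strand use in the counting is not given in the sources used here, so reads shared between both genes cannot be told apart.

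Relb encodes RelB, the partner of p52 in the non-canonical pathway. Its levels were 3.58, 2.61 and 1.404 CPM in Control, 165, 2.78 and 1.82 CPM in ConA and 5.27, 2.32 and 2.21 CPM in MSA_ConA. ConA 1 stood far above the rest, MSA_ConA 1 was the next highest, and the libraries numbered 2 and 3 overlapped across the groups.

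Nfkbia encodes IkappaB-alpha, which pulls NF-kappa-B out of the nucleus and is rebuilt within the hour after activation in cultured cells. It measured 28.97, 28.96 and 26.2 CPM in Control. In ConA it measured 1742, 26.5 and 26.9 CPM. In MSA_ConA it measured 116, 23.35 and 22.2 CPM. ConA 1 was highest and MSA_ConA 1 came next, whereas ConA 2 and 3 fell within the Control range and MSA_ConA 2 and 3 were below it.

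Nfkbie encodes IkappaB-epsilon, a slower inhibitor of the same kind. Its levels were 5.44, 6.58 and 6.24 CPM in Control, 38.4, 5.82 and 5.905 CPM in ConA, and 0.395, 5.31 and 5.66 CPM in MSA_ConA. In TMM-scaled CPM, Nfkbie was the one gene of the set with its lowest value in MSA_ConA 1. There 3 counts of Nfkbie were found against 73 in Control 1 and 397 in ConA 1. Scaled by library totals, Nfkb1, Nfkb2 and Tnip1 were also lowest in MSA_ConA 1 (253, 79 and 102 of 13294600 counts). The 6 libraries numbered 2 and 3 held 96 to 126 counts each.

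Bcl3 encodes a nuclear IkappaB-like cofactor of p50 and p52 homodimers. It measured 51.2, 33.4 and 34.4 CPM in Control, 432, 30.8 and 25.4 CPM in ConA and 214, 25.5 and 25.7 CPM in MSA_ConA. ConA 1 and MSA_ConA 1 were both high, Control 1 was the highest of its group, and ConA 2 and 3 and MSA_ConA 2 and 3 were all below the Control libraries. The overlapping antisense genes Gm16174 and Gm16175 did not exceed 7.06 CPM and 0.783 CPM in any library.

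The Nfkbiz model stands for IkappaB-zeta, a nuclear cofactor of secondary inflammatory genes. It measured 8.49, 21.65 and 18.7 CPM in Control, 559, 21.5 and 19.0 CPM in ConA and 122.7, 22.3 and 22.1 CPM in MSA_ConA. As with Bcl3, ConA 1 and MSA_ConA 1 were both above all other libraries. Control 1 was the lowest of the 9.

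Tnfaip3 encodes A20, a ubiquitin-editing enzyme that shuts off signalling upstream of the IkappaB kinases. It measured 1.415, 3.29 and 2.86 CPM in Control, 1072, 4.43 and 4.88 CPM in ConA and 6.32, 4.26 and 2.83 CPM in MSA_ConA. ConA 1 held 11079 counts of Tnfaip3 against 19 to 86 in the 8 other libraries. All ConA libraries were above all Control libraries, and MSA_ConA overlapped with both groups. Such a separation was not counted over all genes.

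Tnip1 encodes ABIN1, which recruits A20 to ubiquitin chains. Its levels were 16.4, 9.65 and 8.79 CPM in Control, 217, 11.7 and 8.23 CPM in ConA and 13.4, 7.36 and 8.905 CPM in MSA_ConA. ConA 1 was high, Control 1 came next, and the groups overlapped. Birc3 encodes cIAP2, a ubiquitin ligase at TNF receptor complexes. It measured 12.4, 12.8 and 12.6 CPM in Control, 239, 12.25 and 15.7 CPM in ConA and 25.15, 13.3 and 14.2 CPM in MSA_ConA. In TMM-scaled CPM, all 3 MSA_ConA libraries were above all Control libraries for Birc3, while ConA 2 was below them. Scaled by library totals, MSA_ConA 1 (191 of 13294600 counts) fell below Control 2 (245 of 16233684 counts). The share of all genes that separate like Birc3 was not counted. Birc3 has a close paralog, Birc2, and the counting of reads that fit both is not given in the sources used here.

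**Figure D1:**
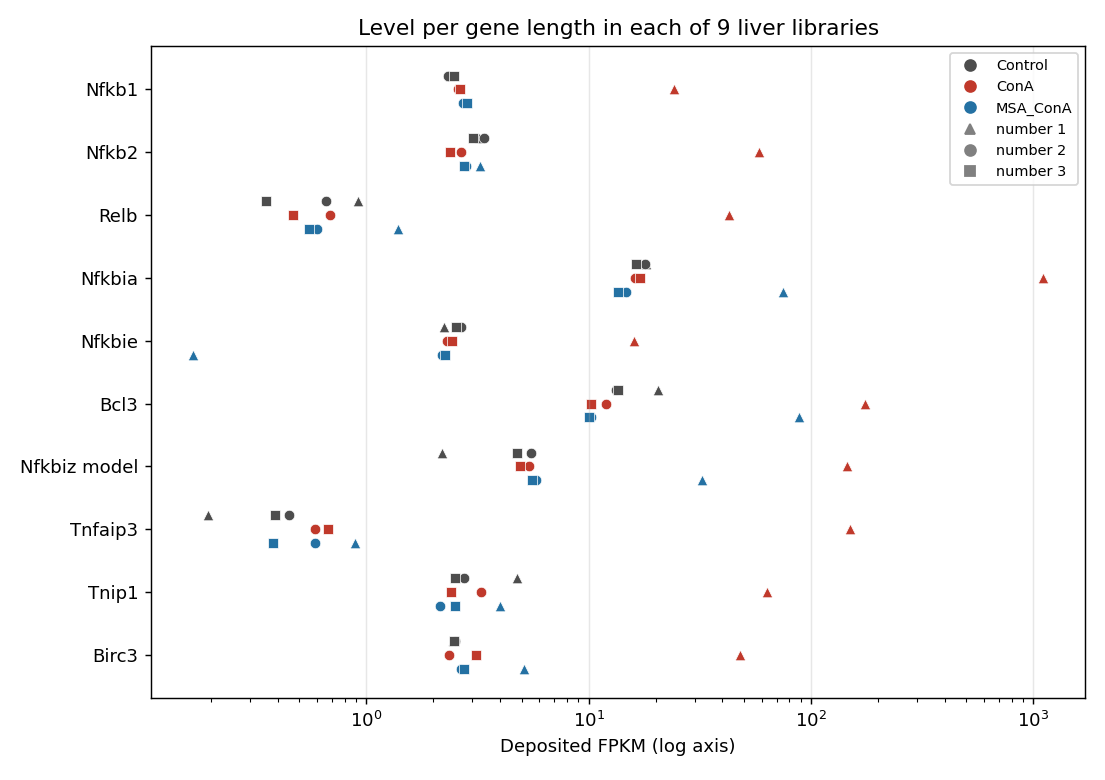
Deposited FPKM (log axis) of the 9 named genes and the Nfkbiz model in each of 9 liver libraries, with colour for group and marker shape for library number. ConA 1 is the highest library for all 10, from 15.96 FPKM for Nfkbie to 1106 FPKM for Nfkbia, and the circles and squares of the 3 groups lie close together.

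Per gene length, the order of the genes differed between libraries. In Control, Nfkbia (17.5 ± 1.05 FPKM, mean ± SD, n = 3) and Bcl3 (15.8 ± 4.10 FPKM) led and overlapped in range. The Nfkbiz model, Tnip1, Nfkb2, Birc3, Nfkbie and Nfkb1 followed, with Control means from 4.16 to 2.395 FPKM. Among these, Nfkb2 (3.02 to 3.39 FPKM) lay above Birc3, Nfkbie and Nfkb1 in all 3 Control libraries, and the ranges of the latter 3 overlapped. Relb (0.644 ± 0.281 FPKM) and Tnfaip3 (0.344 ± 0.132 FPKM) were lowest and overlapped.

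In ConA 1 the order was Nfkbia at 1106 FPKM, Bcl3 at 175 FPKM, Tnfaip3 at 149 FPKM and the Nfkbiz model at 146 FPKM. Tnip1 (63.6 FPKM), Nfkb2 (58.2 FPKM), Birc3 (47.97 FPKM), Relb (42.85 FPKM) and Nfkb1 (24.3 FPKM) came next, and Nfkbie (15.96 FPKM) was last. Tnfaip3 thus ranked 3 of 10 in ConA 1 and last in Control 1. In MSA_ConA 1, Bcl3 (88.1 FPKM) and Nfkbia (74.9 FPKM) led, and Nfkbie (0.167 FPKM) was last. Nfkbia led, followed by Bcl3, in all 6 libraries numbered 2 and 3.

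What ConA alone did to the set was asked first. Over all 9 libraries, edgeR gave higher fitted levels in ConA for 9 of 9 named genes, with a median log2 fold change of 2.77 (range 1.46 to 7.15) against 0.068 over all genes tested. None passed an adjusted p under 0.05, and neither did any other gene, so the share called was 0% of 14603. At an unadjusted p under 0.05, 7 of the 9 genes and 563 of all genes tested stood. DESeq2 called 2 genes and limma-voom 0, none of the set. Nfkbia had a log2 fold change of 4.42 (SE 1.62), Relb 4.49 (SE 1.58) and Tnfaip3 7.15 (SE 2.09), each with an edgeR adjusted p of 0.9997. Without ConA 1 the median of the 9 turned to -0.071. In bulk liver, a change in the number of cells of a type and a change in RNA per cell cannot be told apart.

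Between the libraries numbered 1, the levels in ConA 1 were all at least 4-fold above Control 1 (9 of 9 named genes, against 9.16% of all genes tested). There is no replicate in this comparison, and the 95% intervals are exact conditional binomial intervals for counting error only. Nfkbie was 7.06-fold higher (5.49 to 9.20), Bcl3 8.44-fold (7.79 to 9.16) and Nfkb1 10.1-fold (9.05 to 11.2). Tnip1 was 13.3-fold higher (11.5 to 15.3), Nfkb2 17.9-fold (15.1 to 21.3) and Birc3 19.3-fold (16.5 to 22.7). The gap widened for Relb at 46.25-fold (34.7 to 63.0), Nfkbia at 60.1-fold (54.4 to 66.7) and the Nfkbiz model at 65.85-fold (54.7 to 80.0). The ratio for Tnfaip3 rests on 19 counts in Control 1, and at 757.5-fold its interval ran from 485 to 1259. Scaled by library totals, the same ratios ran from 5.015-fold for Nfkbie to 538-fold for Tnfaip3.

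Between the libraries numbered 2 no named gene reached 4-fold, with log2 ratios from -0.31 to 0.43, and between those numbered 3 none did either (-0.43 to 0.77). In the edgeR fit of numbers 2 and 3 alone, 0% of 14851 genes were called for ConA against Control, and the 9 named genes had a median log2 fold change of 0.10 (range -0.35 to 0.58). None of the 9 reached an unadjusted p under 0.05, as 1725 of all genes tested did. DESeq2 called 90 genes and limma-voom 0 in these libraries, none of the set. Tnfaip3 had the highest value at 0.58 (SE 0.304, edgeR adjusted p = 0.468) and Nfkb2 the lowest at -0.35 (SE 0.187, adjusted p = 0.475).

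The difference itself was tested in 1 edgeR model with a mean for each group in number 1 and in numbers 2 and 3, which assumes that the lone library numbered 1 varies like the others and takes its spread from the libraries numbered 2 and 3 alone. The step from Control to ConA was larger in number 1 for 9 of 9 named genes, in a background where 31.1% of all genes tested were called, 15.7% with a higher and 15.4% with a lower step. The median difference of the 9 was 4.14 on the log2 scale, and -0.094 over all genes. Nfkbia differed by 5.96 (SE 0.27) and Tnfaip3 by 8.96 (SE 0.436), both with an adjusted p of 0.000138 by edgeR. Nfkbie had the smallest difference, 2.95 (SE 0.337, edgeR adjusted p = 0.00142), and the Nfkbiz model had one of 6.04 (SE 0.289).

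**Figure D2:**
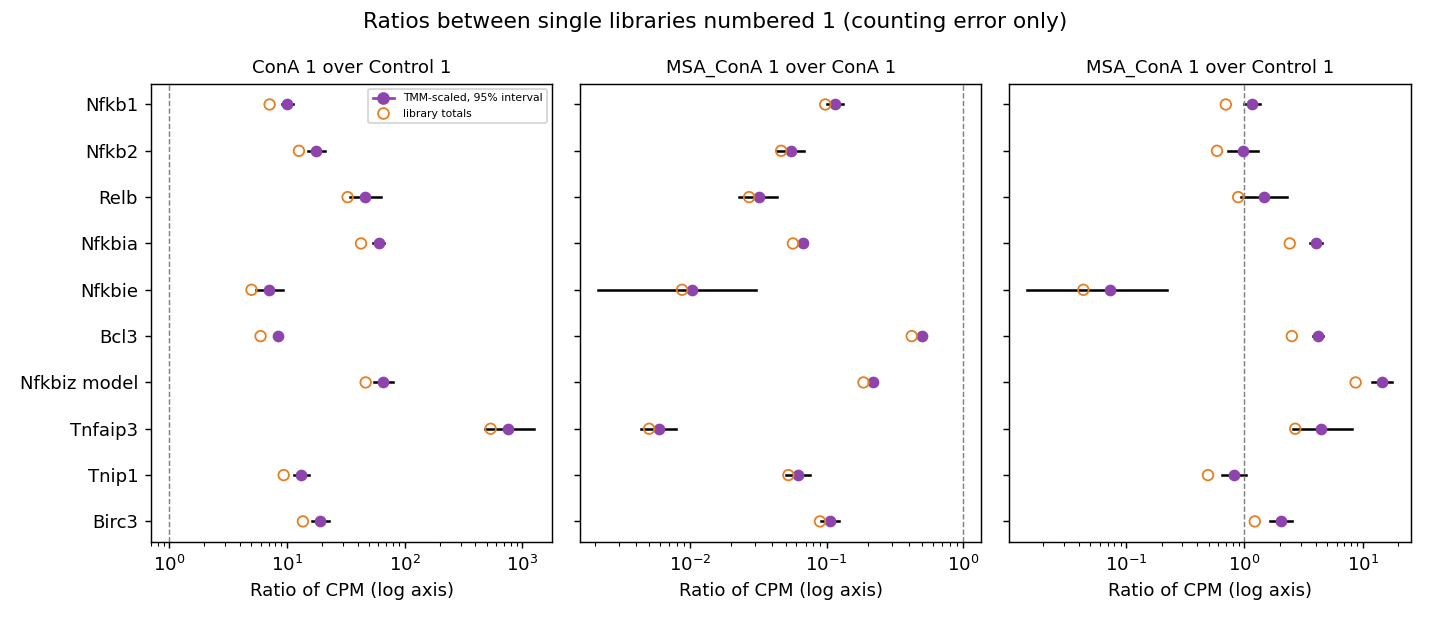
Ratios of TMM-scaled CPM between the single libraries numbered 1 (log axes), with exact conditional binomial 95% intervals that cover counting error only, and the same ratios by library totals as open circles. All 10 ratios lie above 1 for ConA 1 over Control 1 and below 1 for MSA_ConA 1 over ConA 1, while for MSA_ConA 1 over Control 1 they run from 0.0727 for Nfkbie to 14.45 for the Nfkbiz model.

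Whether MSA ahead of ConA altered the set was asked by comparing MSA_ConA with ConA. All 9 named genes had lower fitted levels in MSA_ConA over the 9 libraries, with a median log2 fold change of -2.84 (range -6.34 to -0.88) against 0.018 for all genes. None passed in edgeR, and the share called was 0% of 14603. An unadjusted p under 0.05 was reached by 6 of the 9 and by 248 of all genes, and DESeq2 and limma-voom called 0 genes. Tnfaip3 stood at -6.34 (SE 2.01) and Bcl3 at -0.88 (SE 1.18), each with an edgeR adjusted p of 0.9999. Without ConA 1 the median of the 9 turned to 0.18.

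Between the libraries numbered 1, 8 of 9 named genes were at least 4-fold lower in MSA_ConA 1 than in ConA 1, against 7.29% of all genes tested. Bcl3 was the exception, 2.02-fold lower (1.91 to 2.14). The subunits were lower by 8.69-fold for Nfkb1 (7.64 to 9.92), 18.3-fold for Nfkb2 (14.6 to 23.2) and 31.4-fold for Relb (22.96 to 44.1). In TMM-scaled CPM of MSA_ConA 1, Nfkb1 and Nfkb2 lay within the range of the 6 libraries numbered 2 and 3, and Relb lay above it. Scaled by library totals, Nfkb1 and Nfkb2 of MSA_ConA 1 lay below that range and Relb inside it. Nfkbia was 14.99-fold lower (14.0 to 16.05), yet MSA_ConA 1 still held it above every library but ConA 1. Nfkbie was 97.2-fold lower, with an interval from 33.03 to 473.5 that reflects its 3 counts. The Nfkbiz model was 4.56-fold lower (4.25 to 4.89). Among the ubiquitin regulators, Tnfaip3 was 169.6-fold lower (127.8 to 230.1), Tnip1 16.2-fold (13.3 to 19.9) and Birc3 9.49-fold (8.19 to 11.1).

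In numbers 2 and 3, 0% of 14851 genes were called by edgeR for MSA_ConA against ConA, and 767 had an unadjusted p under 0.05, none of the 9 among them. The 9 named genes had a median log2 fold change of -0.077 (range -0.38 to 0.15). DESeq2 called 9 genes and limma-voom 0, none of the set. In the test of the difference by library number, the step from ConA to MSA_ConA was lower in number 1 for all 9 named genes. Of all genes tested 18.7% were called, 8.59% with a higher and 10.1% with a lower step. The median difference of the 9 was -3.72 on the log2 scale, against -0.0092 over all genes. Tnfaip3 differed by -7.01 (SE 0.401) and Nfkbie by -6.48 (SE 0.449), with edgeR adjusted p-values of 0.000262 and 0.000413. For Bcl3 the difference was -0.88 (SE 0.258, edgeR adjusted p = 0.0535). It passed with DESeq2 (adjusted p = 0.0389) and with library totals in place of TMM (edgeR adjusted p = 0.0234).

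**Figure D3:**
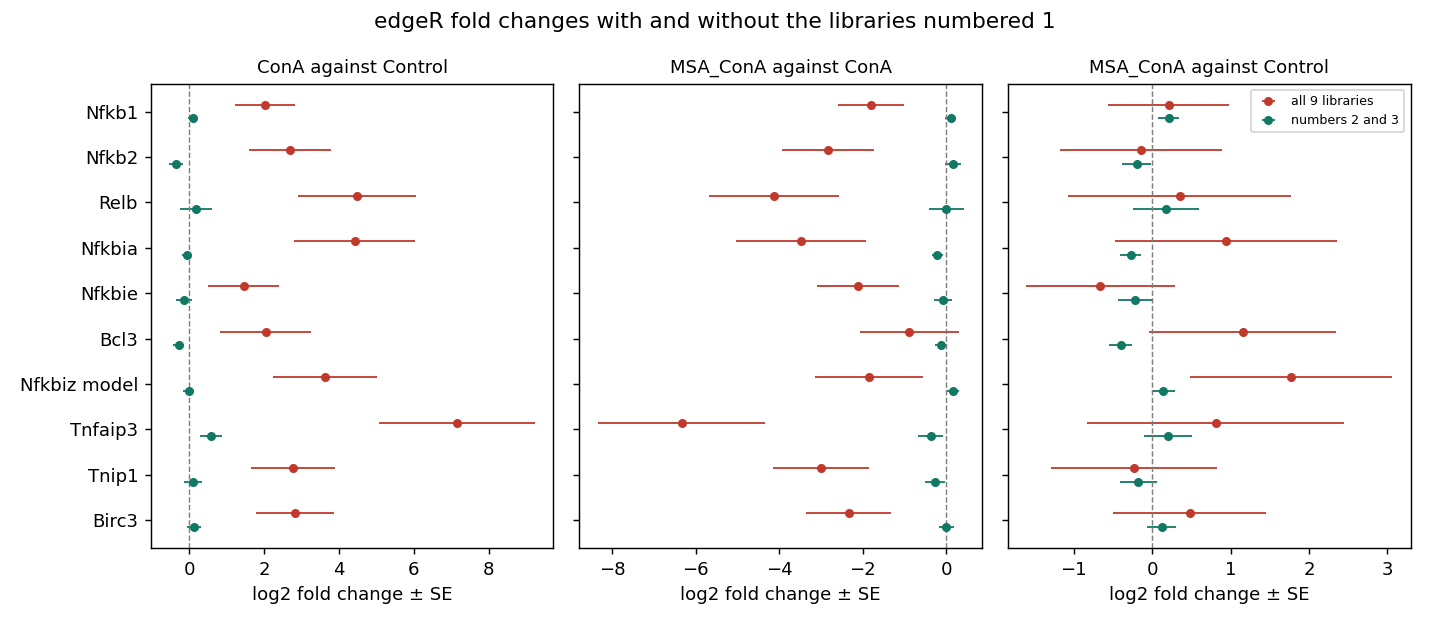
Log2 fold changes from edgeR for the 3 comparisons, fitted on all 9 libraries and on the 6 libraries numbered 2 and 3. Bars are standard errors derived from the F statistic of each test. The values from all 9 libraries reach 7.15 for Tnfaip3 in ConA against Control with errors up to 2.09, and those from numbers 2 and 3 stay between -0.40 and 0.58.

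Whether the mice given MSA and ConA differed from the Control mice given PBS was asked last. Over all 9 libraries, 6 of the 9 named genes were fitted higher and 3 lower in MSA_ConA than in Control, with a median log2 fold change of 0.35 against 0.074 for all genes. The edgeR test called 0% of 14603 genes, with 730 at an unadjusted p under 0.05 and none of the 9 among them. DESeq2 called 55 genes and limma-voom 0, none of the set. Bcl3 had a log2 fold change of 1.16 (SE 1.19) and Nfkbie one of -0.66 (SE 0.947), with edgeR adjusted p-values of 0.979 and 0.999. Without MSA_ConA 1 the median of the 9 turned to -0.15. This comparison shares its Control libraries with the one of ConA and Control.

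In the libraries numbered 1, Nfkbia, Bcl3 and Tnfaip3 exceeded their Control 1 level at least 4-fold in MSA_ConA 1, which is 3 of 9 against 7.29% of all genes. Nfkbie was at least 4-fold lower, 1 of 9 against 9.14%. Nfkbia was 4.01-fold higher (3.56 to 4.53), Bcl3 4.18-fold (3.82 to 4.58) and Tnfaip3 4.47-fold (2.58 to 8.05). The Nfkbiz model was 14.45-fold higher (11.9 to 17.7) and Birc3 2.03-fold (1.64 to 2.52). Nfkbie stood at a ratio of 0.0727 (0.0147 to 0.221).

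The intervals included a ratio of 1 for Nfkb1 (1.16, 0.985 to 1.36), Nfkb2 (0.977, 0.7325 to 1.29), Relb (1.47, 0.944 to 2.29) and Tnip1 (0.820, 0.642 to 1.04). The direction turned with the scaling for Nfkb1 and Relb, whose ratios by library totals were 0.697 and 0.886. By totals Nfkbia, Bcl3 and Tnfaip3 stood at 2.41, 2.515 and 2.69, all 3 under 4-fold. The Nfkbiz model stood at 8.69 by totals, Birc3 at 1.22, Nfkb2 at 0.5875 and Tnip1 at 0.493, each below its counting interval. TMM factors were 0.571 for MSA_ConA 1 and 0.95 for Control 1, and scaling by totals moved the median difference by number over all genes from -0.12 to -0.93.

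In numbers 2 and 3, 0% of 14851 genes were called by edgeR for MSA_ConA against Control. There 3578 genes had an unadjusted p under 0.05. The 1 named gene among them was Bcl3 at -0.40 (SE 0.143, edgeR adjusted p = 0.152), lower in both numbers. The 9 had a median log2 fold change of -0.18 (range -0.40 to 0.21). DESeq2 called 1314 genes in these libraries and limma-voom 0, none of the set. The test by library number called 4 named genes with a higher step in number 1 and 1 with a lower one, where 32.6% of all genes were called, 16% higher and 16.6% lower. These were Nfkbia at 2.28 (SE 0.251), Bcl3 at 2.47 (SE 0.263), Tnfaip3 at 1.95 (SE 0.458) and Birc3 at 0.91 (SE 0.283), and Nfkbie at -3.53 (SE 0.477). The edgeR adjusted p was 0.0450 for Birc3 and ended above the threshold with DESeq2 (0.0742), with limma-voom (0.0859) and when Control 2, Control 3, ConA 3, MSA_ConA 2 or MSA_ConA 3 was left out (0.0508 to 0.108). By library totals the difference of Birc3 came to 0.082 (edgeR adjusted p = 0.842), while Nfkb1 turned to a called difference of -0.82 (edgeR adjusted p = 0.0283). The edgeR call of Tnfaip3 was lost with limma-voom (difference 1.97) and with library totals (1.14). The Nfkbiz model differed by 3.71 (SE 0.277, edgeR adjusted p = 0.000419).

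Genes with the profile most like each member over the 9 libraries were named by the smallest root mean square difference of centred log2(CPM + 1) values. All rest on the 1 high ConA library, and likeness is given as a description. Profiles of Bcl3, Nfkbia and the Nfkbiz model, high in MSA_ConA 1, and of Nfkbie, lowest there, rest on that library too. Nfkb1 lay nearest to Selp, the P-selectin gene, at 0.16, and Relb to Irak3, a brake on interleukin-1 receptor signalling, at 0.161. Nfkb2 and Tnip1 were both nearest to Tap1, the antigen peptide transporter gene, at 0.224 and 0.2203, and to each other among the members at 0.280. Bcl3 lay nearest to Dxo (0.163), Birc3 to Hbegf (0.204), Nfkbie to Ap5b1 (0.222) and the Nfkbiz model to Klf6 (0.278). Nfkbia was nearest to Rn7sk, the 7SK small nuclear RNA gene, at 0.3325. Tnfaip3 was the least matched, at 0.528 from Il1rn, the interleukin-1 receptor antagonist gene. Over the 6 libraries numbered 2 and 3 none of these neighbours recurred, and the members' own SD there was 0.0840 to 0.245 against 0.999 to 2.51 over all 9.

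The rest of the pathway was read from 5 lists of 74 genes, 65 of which passed the filter on low counts. Over all 9 libraries edgeR called none of the 65 in any comparison, as it called 0% of all genes, and the list medians for ConA against Control ran from 0.48 (other regulators) to 2.51 (other targets) on the log2 scale. In the test by library number the counts below stand against the shares over all genes, which were 15.7% with a larger and 15.4% with a smaller step from Control to ConA, and 8.59% with a higher and 10.1% with a lower step from ConA to MSA_ConA. In these counts a step is given as larger, smaller, higher or lower only where it was called, so they are not counts of directions. Differences between the lists and the members were not tested. Of other subunits and cytoplasmic inhibitors, Rela, the main activating subunit, measured 51.8 CPM in Control 1, 378 CPM in ConA 1 and 175 CPM in MSA_ConA 1, with 40.8 to 60.4 CPM in the 6 others. Nfkbib, the gene of IkappaB-beta, measured 29.1, 213 and 274 CPM in the same 3 libraries, so that unlike Nfkbia and Nfkbie it was not lower in MSA_ConA 1 than in ConA 1 (1.28-fold higher, 1.21 to 1.36). In the edgeR test by library number, the step from Control to ConA was larger in number 1 for 3 of 5 genes of this list (Rela, Rel and Nfkbib), and the step from ConA to MSA_ConA was lower for 1 of 5, Rel (-1.07, adjusted p = 0.0498).

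Among 13 IkappaB kinases and upstream kinases, the step from Control to ConA was larger in number 1 for 6 and smaller for 1, and from ConA to MSA_ConA it was higher for 3 and lower for 3. Ikbke, an inducible kinase related to the IkappaB kinases, measured 59.9 CPM in Control 1, 869 CPM in ConA 1 and 7.64 CPM in MSA_ConA 1, and like Nfkbie it was lower in MSA_ConA 1 than in any other library. Chuk and Tab2, genes of the kinase IKK-alpha and of an adaptor of the TAK1 kinase, were highest in MSA_ConA 1 (268.5 and 393 CPM). Ikbkb of the same list changed little, with 70.2, 79.3 and 78.6 CPM in Control 1, ConA 1 and MSA_ConA 1. Among 18 receptors and adaptors the corresponding counts were 11 larger and 0 smaller, then 0 higher and 6 lower. Tlr2, a receptor for bacterial lipoproteins, measured 1.71, 204 and 2.11 CPM in number 1, and Il1r1, the interleukin-1 receptor gene, 48.5, 1090 and 1433 CPM. Irak1 differed less, with 39.6, 57.5 and 63.1 CPM.

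Among 15 other ubiquitin-dependent and feedback regulators, the step from Control to ConA was larger in number 1 for 6, and the step to MSA_ConA was higher for 1 and lower for 4. Zc3h12a, the gene of the RNase Regnase-1, measured 4.77, 204.5 and 50.0 CPM in number 1. Of 22 other textbook targets 14 were tested, and 12 of these had a larger step from Control to ConA in number 1 and 9 a lower step from ConA to MSA_ConA. Icam1, which binds leukocytes, measured 17.8, 1553 and 15.3 CPM in number 1, and Irf1, an interferon-responsive transcription factor gene, 44.1, 1743 and 14.2 CPM. Cxcl1, a neutrophil chemokine gene, stood at 4.84, 897 and 461 CPM and Bcl2l1, a survival gene, at 27.3, 308 and 545 CPM, so the targets did not all follow 1 pattern in MSA_ConA 1. In numbers 2 and 3 no gene of the 5 lists was called by edgeR in any comparison.

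**Figure D4:**
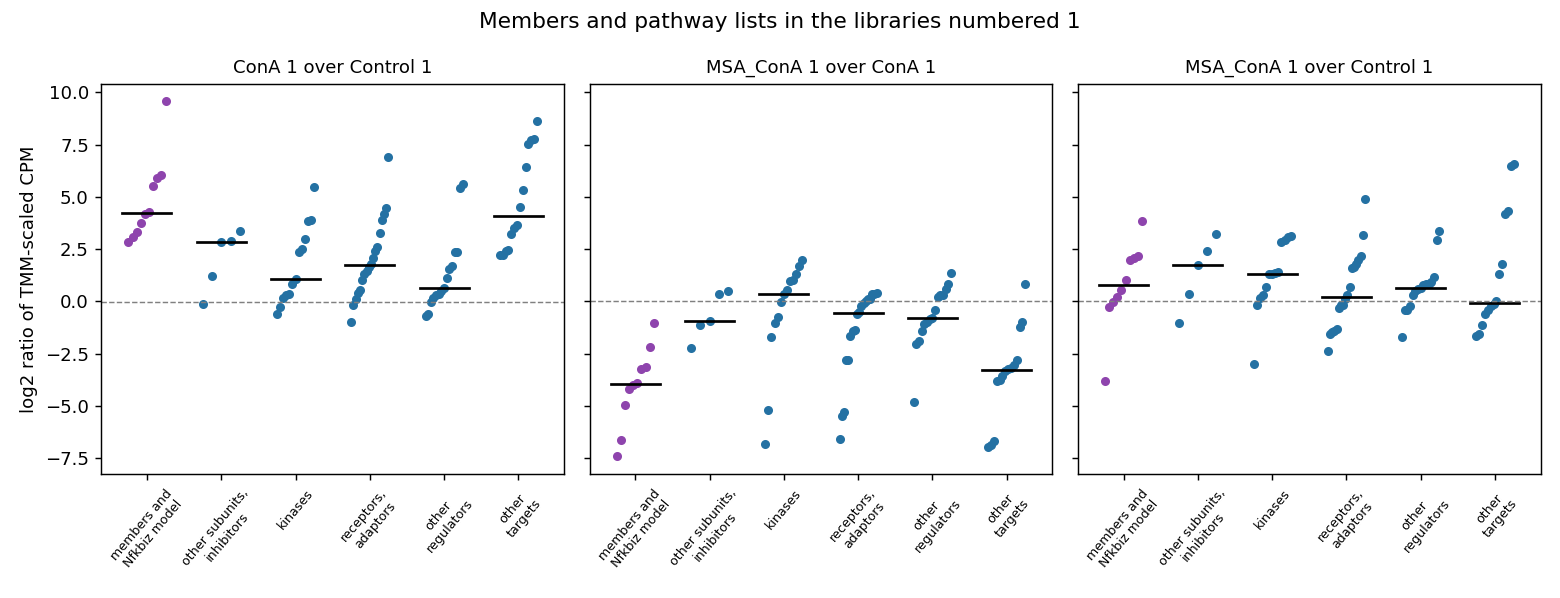
Log2 ratios of TMM-scaled CPM between single libraries numbered 1 for the 9 named genes with the Nfkbiz model and for 5 pathway lists, with a bar at each median and a dashed line at the median of all genes tested. Other targets have a median of 4.07 for ConA 1 over Control 1, while kinases have one of 1.09, and for MSA_ConA 1 over ConA 1 these medians are -3.27 and 0.35.

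Markers of some other cell types stood apart in the same libraries. The 9 neutrophil markers summed to 3.54 to 9.91 CPM in Control, to 452, 5.92 and 2.73 CPM in ConA 1, 2 and 3 and to 62.8, 4.48 and 4.68 CPM in MSA_ConA. ConA 1 was the only library with none of them at 0, and Ly6g, the defining marker, was at 0 in 6 of 9 libraries. The 5 measured monocyte markers summed to 53.3 CPM in ConA 1 and to at most 15.4 CPM elsewhere, with Itgam at 0 in 8 of 9, and the 5 pan-leukocyte markers to 117 CPM in ConA 1, 64.65 CPM in MSA_ConA 1 and at most 49.6 CPM elsewhere. The T and NK cell markers did not differ in this way, with 5.71 CPM in ConA 1 inside the Control range of 3.85 to 7.67 CPM. The part of these cells in the levels of the NF-kappa-B genes was not tested.

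Kupffer cell markers summed to 205 to 330 CPM in Control, to 192, 196 and 180 CPM in ConA 1, 2 and 3 and to 119, 250.3 and 193 CPM in MSA_ConA 1, 2 and 3, so ConA 1 lay within its group and MSA_ConA 1 was the lowest of the 9. Sinusoidal endothelial markers summed to 121 CPM in ConA 1 and 107 CPM in MSA_ConA 1, and to 183 to 240.1 CPM in the 7 other libraries. Hepatocyte markers (5 of 6 in the table) summed to 116000 CPM in ConA 1 and 191900 CPM in MSA_ConA 1, against at most 126100 CPM elsewhere. The 6 adipocyte markers summed to 493 CPM in MSA_ConA 1 with Adipoq, Plin1 and Lep at 0 there. Skeletal muscle markers reached 3889 CPM in MSA_ConA 3, where the members were at the level of the other libraries numbered 2 and 3.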

How the data were processed

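The authors deposited raw counts per gene and FPKM values (counts scaled by gene length and by library size) for 9 libraries in 1 table each. Bowtie 0.12.2 appears, beside the builds mm8 and mm10, per the submitters' processing notes, which state no role for any of the 3. The counting tool and the use of strand are not stated in the labels. Per the file headers and identifiers, genes are placed on the C57BL/6NJ assembly, while promoter sequences come from RefSeq on GRCm38.p6, so the 2 sets of coordinates were kept apart. MSA_ConA was read from the columns whose header starts with M, and 0 columns were left without a sample. Totals ran from 13294600 to 17276391 counts, and 1 count was worth 0.0515 to 0.132 CPM. The p-values of the fit of all 9 libraries measure the spread between the 3 libraries of a group, and those of the other 2 fits only the spread between the 2 libraries numbered 2 and 3.

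Counts were fitted with edgeR 4.0.16 (R 4.3.3), by its quasi-likelihood test with TMM scaling, the default filter by group and Benjamini-Hochberg adjustment over all genes tested at 0.05. The fits were all 9 libraries (6 residual degrees of freedom), a mean per group and number class (3), and numbers 2 and 3 alone (3). Each SE is derived, as the absolute log2 value divided by the square root of the F statistic of the same edgeR test. The edgeR fits of ConA against Control were also run on simulated counts with changes added to some genes. Outside those changes each simulated gene had the same mean level in all libraries, so the libraries numbered 1 did not stand apart there. The other steps were not simulated. Members, pathway lists and marker lists were chosen with earlier results of these data known. All 10 members are named, with the nearest profile per member among genes with a symbol. Pathway genes are named from the up to 4 per list of highest mean CPM and from those called in a fit. Not all of these are named. Exact intervals cover counting error only, at 95%. The fits were repeated with limma-voom (limma 3.58.1), DESeq2 1.42.0, RLE factors, library totals, other filters, limma on log2(FPKM + 1) and log2(FPKM + 0.1) of the deposited values, only the groups compared, number class or library number as a term, an adjusted p of 0.01, and each library left out.

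The library number, which the titles give, was checked for pairing on deviations from group means across genes. The correlation between libraries of 1 number was 0.479 to 0.713 (number 1), 0.349 to 0.553 (number 2) and 0.303 to 0.472 (number 3). All were over the bound of 0.1. Numbers 2 and 3 correlated with each other at 0.313 to 0.681, about as highly as libraries that share number 2 or 3. Number 1 correlated with the others at -0.676 to -0.373. The check thus cannot tell a pairing of libraries from number 1 standing apart in every group. The fit of all 9 libraries held no term for number, and the number as a replicate block is among the alternatives.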

Additional observations from a re-analysis of the deposited data

Results flagged for a closer look

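Each result here is a step between groups that differed between the library numbered 1 and those numbered 2 and 3, in 1 edgeR model with 3 residual degrees of freedom and adjusted p under 0.05 over all genes tested. Values are differences on the log2 scale, number 1 minus numbers 2 and 3. Number 1 is 1 library per group, and it differs from the others in the transcripts of Xist, Nnt and Mup21.

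From Control to ConA, all 9 named genes and the Nfkbiz model had a higher step in number 1. Of all genes tested, 15.7% were called with a higher step. The subunits differed by 3.21 (Nfkb1), 4.50 (Nfkb2) and 5.33 (Relb). The genes of IkappaB inhibitors differed by 5.96 (Nfkbia) and 2.95 (Nfkbie), and those of the nuclear cofactors by 3.35 (Bcl3) and 6.04 (the Nfkbiz model). The ubiquitin regulators differed by 8.96 (Tnfaip3), 3.61 (Tnip1) and 4.14 (Birc3).

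From ConA to MSA_ConA, 8 named genes and the Nfkbiz model had a lower step in number 1, and Bcl3 did not pass. Of all genes tested, 10.1% were called with a lower step. The subunits differed by -3.21 (Nfkb1), -4.33 (Nfkb2) and -4.95 (Relb). Nfkbia differed by -3.68, Nfkbie by -6.48 and the Nfkbiz model by -2.32. Tnfaip3 differed by -7.01, Tnip1 by -3.72 and Birc3 by -3.23.

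From Control to MSA_ConA, Nfkbia (2.28), Bcl3 (2.47), Tnfaip3 (1.95), Birc3 (0.91) and the Nfkbiz model (3.71) had a higher step in number 1. Nfkbie (-3.53) had a lower one. Of all genes tested, 16% were called with a higher and 16.6% with a lower step. Genes within 100000 bases of Nfkbie were also at lower levels in MSA_ConA 1 than in Control 1, at ratios of 0.715 for Hsp90ab1, 0.483 for Slc35b2, 0.333 for Aars2, 0.216 for Slc29a1 and 0.0147 for Gm17080, against 0.0727 for Nfkbie itself. The value of Gm17080 rests on 1 count in MSA_ConA 1. In ConA 1, where Nfkbie was high, Slc29a1 (82.1 against 255 CPM in Control 1), Slc35b2 (38.2 against 55.9 CPM) and Gm17080 (0.290 against 8.94 CPM) were also low. Aars2 was nearly unchanged there (31.9 against 35.6 CPM), and Hsp90ab1 was higher (1036 against 911 CPM). Over all genes tested, 9.14% were at least 4-fold lower in MSA_ConA 1 than in Control 1. A change of the region as a whole was not tested.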

How the results depend on the processing

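The count of named genes called was 0 in each comparison of all 9 libraries and of numbers 2 and 3, under each alternative run, the replicate block included. Of 144 recomputed counts 142 stayed within 1.5 times the first value. The count for the difference by number in MSA_ConA against Control went from 5 to 3 with limma-voom, which called 3601 of all 14603 genes there. That count also went to 3 at an adjusted p of 0.01, where the share over all genes was not counted. When the number entered as a replicate block, Nfkbia in MSA_ConA against Control turned to -0.028, the median of the 9 in ConA against Control was 1.59, and no call changed.

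In numbers 2 and 3 alone, log2 fold changes turned for ConA against Control in Nfkb2 (-0.35), Nfkbia (-0.061), Nfkbie (-0.14), Bcl3 (-0.28) and the Nfkbiz model (-0.011), for MSA_ConA against ConA in Nfkb1 (0.10), Nfkb2 (0.15) and the Nfkbiz model (0.15), and for MSA_ConA against Control in Nfkbia (-0.27), Bcl3 (-0.40) and the median of the 9 (-0.18). By library totals, the difference by number in MSA_ConA against Control turned for Nfkb1 (-0.82, called at an edgeR adjusted p of 0.0283), Nfkb2 (-0.65) and Relb (-0.43), and that of Birc3 shrank to 0.082 (edgeR adjusted p = 0.842). The cause was not tested.

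Leaving out each library in turn, with the lone sample of a class assumed to vary like the others, the lowest values for ConA against Control came without ConA 1. They ran from -0.33 to 3.20 for Nfkb2, -0.13 to 5.03 for Relb, -0.071 to 4.96 for Nfkbia, -0.055 to 1.85 for Nfkbie, -0.50 to 2.525 for Bcl3, -0.22 to 3.28 for Tnip1 and -0.071 to 3.28 for the median. For MSA_ConA against ConA the highest came without ConA 1, with ranges of -2.25 to 0.072 for Nfkb1, -3.355 to 0.18 for Nfkb2, -4.70 to 0.48 for Relb, -4.71 to 1.00 for Nfkbia, -2.67 to 1.64 for Bcl3, -2.855 to 0.32 for Birc3, -3.165 to 1.45 for the Nfkbiz model and -3.355 to 0.18 for the median. For MSA_ConA against Control, the lowest came without MSA_ConA 1, with -0.15 to 0.67 for Relb, -0.30 to 1.29 for Nfkbia, -0.64 to 1.57 for Bcl3, -0.51 to 0.085 for Tnip1 and -0.15 to 0.55 for the median. The difference by number there ran from -0.078 to 0.029 for Nfkb1 and -0.15 to 0.72 for Relb, and that of Birc3 from 0.84 to 0.91 without its call in 5 of 6 of these settings.

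Each ratio between single libraries numbered 1 was recomputed with RLE factors, with library totals and from the deposited FPKM. Of these 90 recomputed values, 68 stayed inside the counting intervals and 22 moved outside them. All 22 were by library totals, and every value by RLE factors or FPKM stayed inside. Depth limits Nfkbie in MSA_ConA 1 (3 counts) and Tnfaip3 in Control 1 (19 counts). With 1 library per group in number 1, the spread between mice was not measured there.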
